A study of Mus musculus with 24 samples.

Results

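Antigen presentation by MHC class II was followed through 7 genes on 24 arrays of macrophage RNA. They were H2-Aa, H2-Ab1, H2-Ea, H2-Eb1, H2-DMa, Cd74 and Ciita, among 18193 genes on the arrays with a probe set of 1 symbol. A probe set is a group of short probes that together give 1 value per array. All 17 probe sets whose annotation gave only 1 of these symbols were kept, with no choice by signal. H2-Aa had 4, H2-Ab1, H2-Ea and Ciita had 3 each, H2-DMa had 2, and H2-Eb1 and Cd74 had 1 each. Every probe set is shown because the strains carry different MHC haplotypes, so that a probe designed on one haplotype can bind the other differently.

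The cells were macrophages grown for 6 days from the bone marrow of male mice, 3 per genotype, all lacking Il10, which encodes an anti-inflammatory cytokine. C3Bir (C3H/HeJBir-Il10tm1Cgn) is described as susceptible to colitis and B6 (C57BL/6J-Il10tm1Cgn) as resistant. CB-R1 (C3Bir.Cg-Il10tm1Cgn Cdcs1) is a congenic strain with the C3Bir background and a long B6 segment of chromosome 3 that holds the colitis locus Cdcs1. BC-R3 (B6.Cg-Il10tm1Cgn Cdcs1) has the B6 background and the Cdcs1 region of C3Bir. Cells of each strain were given 1 µg/mL of the bacterial protein flagellin for the last 4 h or were left unstimulated, and 3 wells were pooled per RNA sample. There were 8 groups of strain and condition with 3 arrays each (numbers 1 to 3), and so few arrays limit the precision. The labels tie no number to a mouse, and the p-values cover only the spread among the arrays of a group, which may be technical. Values are log2 signals.

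MHC class II molecules hold peptides from endocytosed proteins at the cell surface, where CD4 T cells read them. Each molecule is a pair of an alpha and a beta chain: H2-Aa and H2-Ab1 encode the pair called I-A, and H2-Ea and H2-Eb1 the pair called I-E. Cd74, the invariant chain, fills the groove of new molecules and guides them to endosomes, where H2-DM, of which H2-DMa encodes the alpha chain, exchanges its remnant for peptide. Ciita is the coactivator that docks on RFX and NF-Y proteins bound at class II promoters and largely sets their transcription, and in macrophages it is induced by interferon gamma. C57BL/6 mice carry a deletion in the promoter region of H2-Ea and make no I-E, whereas C3H mice make both pairs.

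The promoters below show these docking letters for the I-A alpha chain gene and the I-E beta chain gene, a pair of genes that were read differently between the strain backgrounds by some of their probe sets. They are the 250 bases before the gene start in RefSeq's GRCm38.p6, 5′ to 3′ on the gene's strand, for H2-Aa at chr17:34287824-34288073 on the minus strand and for H2-Eb1 at chr17:34305617-34305866 on the plus strand. Capitals mark GCAACT, letters of the X box that RFX binds, and CTGATTGG, letters of the Y box that NF-Y binds.
H2-Aa: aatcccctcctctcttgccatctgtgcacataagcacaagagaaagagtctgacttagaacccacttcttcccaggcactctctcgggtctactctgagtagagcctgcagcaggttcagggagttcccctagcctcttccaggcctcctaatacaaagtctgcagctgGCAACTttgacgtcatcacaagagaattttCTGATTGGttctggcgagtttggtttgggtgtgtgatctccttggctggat
H2-Eb1: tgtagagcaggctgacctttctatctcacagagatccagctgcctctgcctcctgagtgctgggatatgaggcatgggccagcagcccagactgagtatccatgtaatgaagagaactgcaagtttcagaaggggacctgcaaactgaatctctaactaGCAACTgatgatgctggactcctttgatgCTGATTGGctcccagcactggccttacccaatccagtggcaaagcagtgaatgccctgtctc
In H2-Aa the Y letters begin 51 bases and the X letters 81 bases before the start, and in H2-Eb1 they begin 62 and 91 bases before it. Searched on both strands, with no overlap between them here, the Y letters occur in 3.83% and the X letters in 9.01% of 32851 mouse promoters of this length, and both in 0.341%. The letters were chosen after these sequences had been read. H2-DMa has 2 promoters in the table and neither holds either motif. The reference is C57BL/6J, so it shows the B6 haplotype, and the C3Bir sequence was not used here.

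The arrays had median log2 signals of 6.55 to 6.64, and arrays of a group correlated at 0.987 to 0.998. Some arrays go against their labels: the mean of Tnf, Il1b, Il6 and Il12b was 12.27 and 12.34 on B6 unstimulated arrays 2 and 3 and 9.56 and 9.43 on C3Bir unstimulated arrays 2 and 3, above the 6.43 to 8.49 of the other 20 arrays, which include all arrays labelled flagellin. The 4 high arrays are arrays 2 and 3 of unstimulated B6 and C3Bir. Results that use them are given below also without them where a call depends on it. That leaves only array 1 of unstimulated B6 and of unstimulated C3Bir, so a call lost there cannot be told from the loss of arrays. Unstimulated array 1 of BC-R3, at 8.49, and of B6, at 8.36, also stood above every flagellin array, of which the highest had 7.95. Leaving out the 4 high arrays therefore does not remove every unstimulated array that lies above the flagellin arrays. Averaged over all arrays, all 8 macrophage markers lay above the upper quartile of probe sets, and their mean was 11.99 to 12.58 per array. Of 7 B cell markers none did, and their mean was 6.28 to 6.52, with Cd79a at 5.44 to 5.96. Of 11 dendritic cell markers 1, Itgax, lay above the upper quartile, and of 6 T and NK cell markers 0. In RNA from whole cultures, fewer cells of a type and less RNA per cell cannot be told apart.

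By their brightest probe sets, the chains of I-A, the beta chain of I-E and the invariant chain were among the bright features of these macrophages. Averaged over 24 arrays, Cd74 stood at 12.17, at percentile 98.8 of all probe sets. The brightest probe sets of H2-Aa, H2-Eb1 and H2-Ab1 averaged 11.24, 10.59 and 10.59, at percentiles 97.2, 95 and 95. The I-E alpha chain H2-Ea was read at 9.41 by 1422891_at, 6.38 by 1422892_s_at and 4.28 by 1426202_at, at percentiles 87.9, 45.3 and 7.7. H2-DMa averaged 8.13 and Ciita 6.71, at percentiles 74.8 and 52.0. Probe sets differ in how well they bind, so these means place each feature on the arrays and do not rank the genes against each other.

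**Figure D1:**
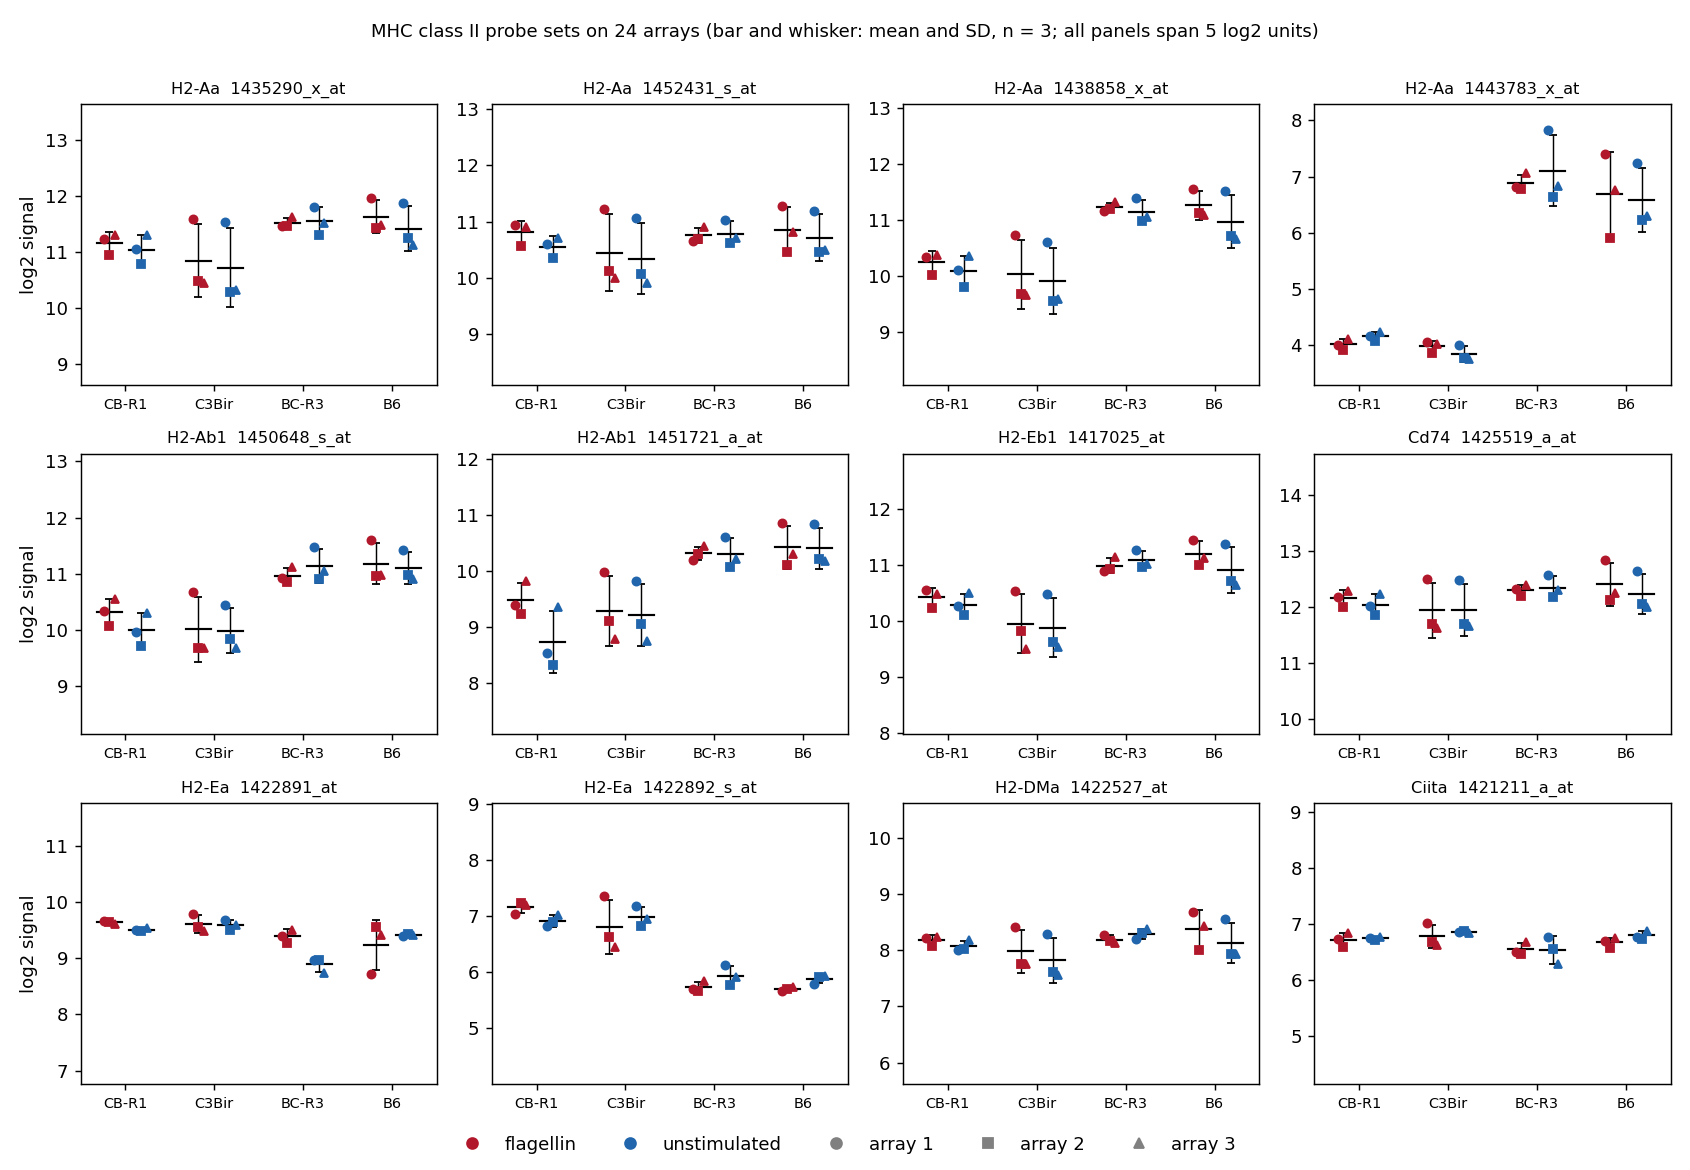
Log2 signal of 12 of the 17 class II probe sets on each array, by strain (CB-R1, C3Bir, BC-R3, B6); red points are flagellin and blue points unstimulated arrays, shapes give the array number, and bars and whiskers the mean and SD of 3 arrays. Both strains of the C3Bir background lie below both strains of the B6 background in the panels of H2-Ab1, of H2-Eb1 and of 1438858_x_at and 1443783_x_at for H2-Aa, and above them for 1422892_s_at of H2-Ea.

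The first comparison set the C3Bir background (C3Bir and CB-R1) against the B6 background (B6 and BC-R3), which differ in MHC haplotype. The beta chains H2-Ab1 and H2-Eb1 were lower in the C3Bir background in both conditions, by 1.87-fold to 2.60-fold over their 4 probe sets. H2-Aa gave unequal readings from its 4 probe sets. H2-Ea was higher in the C3Bir background by 1 of its probe sets in particular, 2.40-fold with flagellin and 2.06-fold without. Cd74, H2-DMa and Ciita did not pass the test. By limma with Benjamini-Hochberg adjustment, 8 of the 17 probe sets were called with flagellin and 8 without, 2 higher and 6 lower each time, at an adjusted p under 0.05. Of all probe sets 12% were called with flagellin (6.37% higher and 5.63% lower) and 14.2% without (7.82% higher and 6.37% lower). The arrays of the backgrounds did not overlap for 7 of the 17 with flagellin and 8 without, against 7.47% and 4.38% of all probe sets. The median difference of the 17 was -0.20 with flagellin and -0.29 without, beside 0.02 and 0.0069 over all probe sets. Without the 4 high arrays 8 were called with flagellin (1 higher and 7 lower) and 7 without (1 higher and 6 lower). In a comparison of whole backgrounds, a different amount of transcript and a different sequence under the probes cannot be told apart.

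H2-Aa, the I-A alpha chain, was read unequally by its own probe sets. Its probe set 1443783_x_at had a lowest, median and highest signal of 3.86, 4.00 and 4.11 in the C3Bir background with flagellin, against 5.91, 6.80 and 7.41 in the B6 background. Without flagellin it had 3.75, 4.03 and 4.22 in the C3Bir background, against 6.22, 6.74 and 7.82 in the B6 background. All 12 arrays of the C3Bir background lay below the arrays' lower quartile, 5.29 to 5.42, and all 12 of the B6 background above it, so only a bound can be given. With the C3Bir background set to each array's lower quartile, 1443783_x_at was at least 2.68-fold lower with flagellin and at least 2.76-fold lower without, and limma's adjusted p for the measured signals was 9.04e-09 and 7.13e-09. For 1438858_x_at the signals were 9.66, 10.18 and 10.74 in the C3Bir background with flagellin, against 11.09, 11.18 and 11.55 in the B6 background, and the 6 arrays of one did not overlap the 6 of the other. It was 2.15-fold lower with flagellin and 2.07-fold lower without, with adjusted p = 6.83e-04 and 0.00104 (limma).

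The other 2 probe sets of H2-Aa gave smaller differences. The brightest, 1435290_x_at, had 10.45, 11.09 and 11.60 in the C3Bir background with flagellin, against 11.43, 11.48 and 11.97 in the B6 background, and the groups overlapped. Its difference was -0.57 ± 0.21 with flagellin and -0.60 ± 0.21 without, and neither passed the test (limma adjusted p = 0.0960 and 0.0682). Without the 4 high arrays its flagellin difference passed, at adjusted p = 0.0362. The last, 1452431_s_at, had 9.99, 10.74 and 11.23 in the C3Bir background with flagellin, against 10.46, 10.76 and 11.28 in the B6 background. These groups overlapped almost throughout, and the difference was -0.18 with a 95% interval of -0.62 to 0.27. Leaving aside 1443783_x_at, all 3 pairs of H2-Aa probe sets differed in their background difference in both conditions, by 0.30 to 0.93 in size (exact permutation test over arrays, 6 against 6, two-sided, p = 0.00216, the smallest it can give, adjusted p = 0.00433 over 32 tests of probe set pairs). The 4 probe sets thus gave no single reading of the H2-Aa difference.

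H2-Ab1, the I-A beta chain, gave 3 readings of like size. Its probe set 1450648_s_at had 9.67, 10.21 and 10.68 in the C3Bir background with flagellin, against 10.85, 10.96 and 11.60 in the B6 background. Without flagellin it had 9.67, 9.90 and 10.44 in the C3Bir background, against 10.90, 11.01 and 11.47 in the B6 background. The 12 arrays of the C3Bir background lay below all 12 of the B6 background for this probe set, and the same held for 1451721_a_at and 1425477_x_at. The 3 differences were -0.91 ± 0.18, -0.98 ± 0.22 and -0.97 ± 0.20 with flagellin, with limma adjusted p of 0.00175, 0.00527 and 0.00194. Without flagellin they were -1.13 ± 0.18, -1.38 ± 0.22 and -1.18 ± 0.20, with a largest adjusted p of 2.59e-04. No pair of these probe sets differed in the test of pairs, with adjusted p of 0.142 to 0.943 (exact permutation test). That test does not show that they read the same amount.

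H2-Eb1, the I-E beta chain, had 9.51, 10.36 and 10.55 in the C3Bir background with flagellin, against 10.90, 11.06 and 11.45 in the B6 background. Without flagellin it had 9.54, 10.19 and 10.51 in the C3Bir background, against 10.64, 11.00 and 11.38 in the B6 background. The groups did not overlap in either condition. H2-Eb1 was 1.87-fold lower with flagellin and 1.88-fold lower without, with differences of -0.90 ± 0.17 and -0.91 ± 0.17 and adjusted p = 0.00123 and 0.00101 (limma). Only 1 probe set read this gene, so no second reading was available.

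H2-Ea, the I-E alpha chain, went the other way. RefSeq lists it in the C57BL/6J reference as a transcribed pseudogene. Its probe set 1422892_s_at had 6.45, 7.11 and 7.35 in the C3Bir background with flagellin, against 5.66, 5.69 and 5.84 in the B6 background. Without flagellin it had 6.81, 6.92 and 7.17 in the C3Bir background, against 5.76, 5.91 and 6.12 in the B6 background. Every array of the C3Bir background lay above every array of the B6 background. The difference was 1.27 ± 0.11 with flagellin and 1.04 ± 0.11 without, with adjusted p = 5.42e-08 and 9.24e-07 (limma).

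The brightest H2-Ea probe set, 1422891_at, was high in the B6 background as well. That background carries the deletion in the H2-Ea promoter region described above. Centred on background means, 1422891_at had a Pearson r of 0.13 with 1422892_s_at and 0.34 with 1426202_at over 24 arrays. Whether it reads H2-Ea transcript in the B6 background was not tested. The probe set 1422891_at had 9.49, 9.63 and 9.79 in the C3Bir background with flagellin, against 8.73, 9.41 and 9.56 in the B6 background. The groups overlapped. Without flagellin it had 9.48, 9.53 and 9.69 in the C3Bir background, against 8.74, 9.19 and 9.43 in the B6 background, with no overlap. The differences were 0.31 ± 0.10 and 0.40 ± 0.10, with adjusted p = 0.0406 and 0.00751 (limma), and without the 4 high arrays neither passed, at adjusted p = 0.0674 and 0.0907. The call with flagellin was lost in 13 of 23 other settings, with adjusted p of 0.00562 to 0.114. The third, 1426202_at, lay at 4.05 to 4.55 on all arrays, below their lower quartile, and was not called. The differences read by 1422891_at and 1422892_s_at were unequal, by -0.95 with flagellin and -0.64 without (exact permutation test, p = 0.00216, adjusted p = 0.00433).

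Of the helpers, Cd74 had 11.62, 12.09 and 12.50 in the C3Bir background with flagellin, against 12.13, 12.28 and 12.84 in the B6 background. The groups overlapped, and the difference was -0.30 with a 95% interval of -0.65 to 0.04 (limma adjusted p = 0.292). Without flagellin it was -0.29 with an interval of -0.64 to 0.06. The brighter H2-DMa probe set, 1422527_at, had 7.75, 8.15 and 8.42 in the C3Bir background with flagellin, against 8.01, 8.22 and 8.68 in the B6 background. Its difference of -0.20 had an interval of -0.50 to 0.09, and the second probe set, 1459872_x_at, gave -0.13 with an interval of -0.30 to 0.04. A fall of the size seen for H2-Ab1 lay outside each of these intervals.

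Ciita, the coactivator, had 6.59, 6.72 and 7.02 in the C3Bir background with flagellin, against 6.47, 6.64 and 6.75 in the B6 background by its probe set 1421211_a_at. The groups overlapped, and the difference was 0.14 with a 95% interval of -0.02 to 0.29 (limma adjusted p = 0.292). Without flagellin it was also 0.14, with an interval of -0.02 to 0.30. The probe sets 1421210_at and 1447075_at lay at 5.75 to 6.47 and 4.43 to 4.81 over all arrays, with differences of -0.03 to 0.05. No probe set of Ciita was called in either condition.

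**Figure D2:**
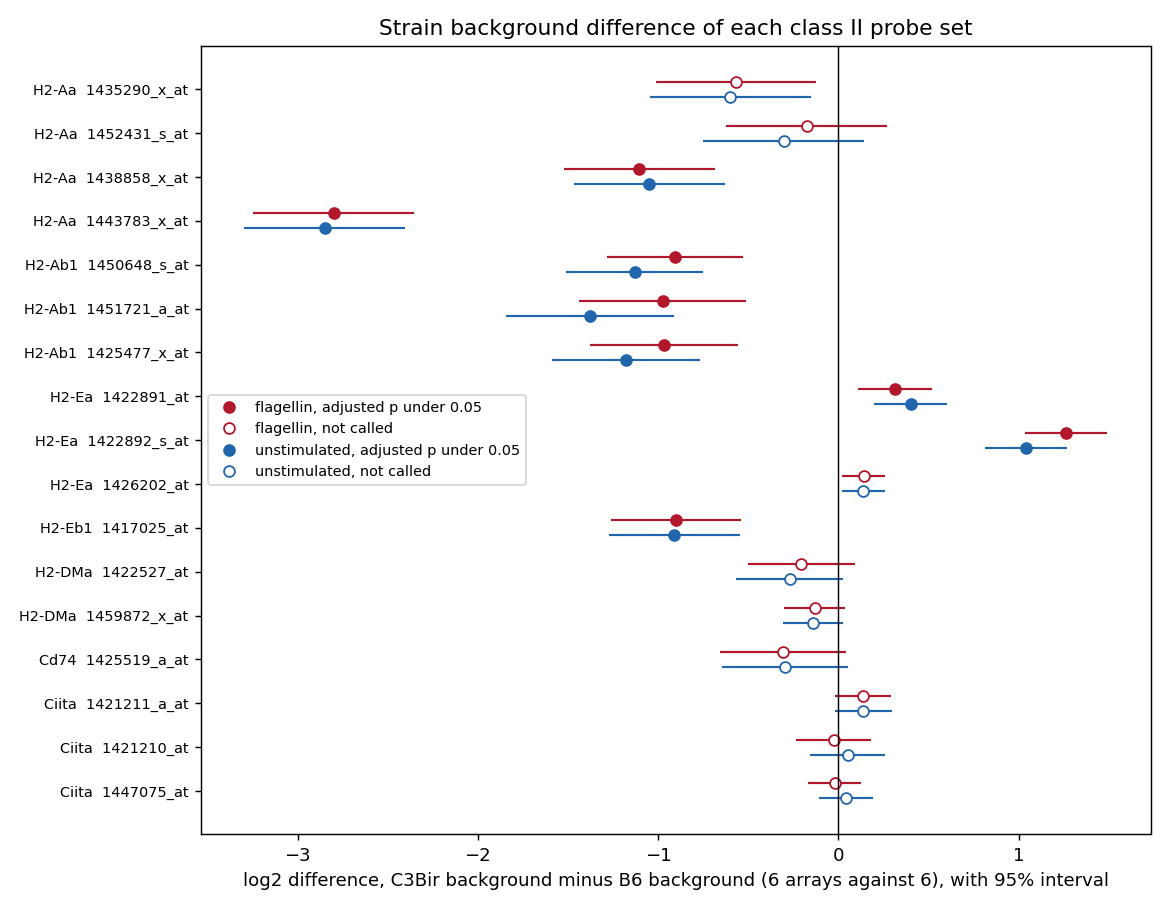
Difference in log2 signal, C3Bir background minus B6 background, of each of the 17 class II probe sets with its 95% interval (6 arrays against 6); red points are flagellin and blue points unstimulated, and filled points passed an adjusted p of 0.05. The 3 points of H2-Ab1 lie together near -1, those of 1443783_x_at for H2-Aa are differences of measured signals and bounds only, and 1422892_s_at of H2-Ea lies above 1.

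The order of the group means followed the background for the beta chains H2-Ab1 and H2-Eb1. For H2-Aa it did not by every probe set. By 1452431_s_at CB-R1 with flagellin, at 10.81, stood between B6 with flagellin, at 10.85, and BC-R3 unstimulated, at 10.79. For H2-Ab1 (1450648_s_at) the 4 groups of the C3Bir background averaged 9.99 to 10.32 and the 4 of the B6 background 10.96 to 11.17, and the gap between them, 0.64, was the only step in the order that exceeded the larger SD of its neighbours. For H2-Eb1 the only such step was likewise that between CB-R1 with flagellin, at 10.43 ± 0.16, and B6 unstimulated, at 10.91 ± 0.41 (SD, n = 3). For Cd74 no step between neighbouring groups exceeded the SD, from 11.94 ± 0.48 in C3Bir with flagellin to 12.40 ± 0.38 in B6 with flagellin.

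Genes that act around these members were described by 3 lists. Between the backgrounds 6.37% of all probe sets were called higher and 5.63% lower with flagellin, and 7.82% and 6.37% without. The list of class II peptide loading held 9 measured genes of 10, and in the C3Bir background 3 were higher with flagellin, 0 lower and 6 not called. Ifi30, a thiol reductase of the endosome, was higher by 0.48 ± 0.06, Ctsl, a cathepsin that cuts the invariant chain, by 0.45 ± 0.05, and H2-Ob, the beta chain of the H2-DM inhibitor, by 0.40 ± 0.07 at a signal below the lower quartile. Without flagellin Ifi30 was higher by 0.60 and Ctsl by 0.46, and 7 were not called. Their largest limma adjusted p was 7.83e-04. H2-DMb1 was not analysed here, since its probe sets carry more than 1 symbol. Of 7 genes for factors of the class II promoter, among them Rfx5 and Nfyb, none was called in either condition.

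The third list held regulators of Ciita, of which 9 were measured. With flagellin 1 was lower and 8 were not called: Ifngr1, a chain of the interferon gamma receptor, at -0.45 ± 0.11. Without flagellin 3 were lower, Ifngr1 at -0.54 ± 0.11, the interferon-induced factor Irf1 at -0.72 ± 0.21 and the cytokine signalling inhibitor Socs1 at -1.04 ± 0.23 (limma adjusted p = 0.00132, 0.0264 and 0.00423). Socs1 had 9.63 and 9.47 on B6 unstimulated arrays 2 and 3, which are among the 4 high arrays, and 7.80 on array 1. Without the 4 high arrays the unstimulated differences of Irf1, Socs1 and Ifngr1 were -0.68, -0.52 and -0.47, with only array 1 of C3Bir and of B6 left. With flagellin the differences of Irf1 and Socs1 were -0.03 and -0.07.

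A few markers were called between the backgrounds, where 12% of all probe sets were called with flagellin and 14.2% without. Of 11 dendritic cell markers 2 were higher in the C3Bir background in both conditions: Itgax, an integrin chain, by 1.17 with flagellin and 1.07 without, and Ly75, an endocytic receptor, by 0.70 and 0.80. Ly75 had at most 5.58, on C3Bir unstimulated array 2, near or below the arrays' lower quartile, and without the 4 high arrays its unstimulated difference was 0.61 and passed. The mean of the 11 was 6.58 to 6.81 in the C3Bir background and 6.36 to 6.65 in the B6 background. Of 6 T and NK cell markers 1 was higher, Cd3d, by 0.50 and 0.65, and the list mean was 6.43 to 6.68 in the C3Bir background and 6.35 to 6.56 in the B6 background. Of 7 B cell markers none was called, and of 8 macrophage markers Adgre1 was lower with flagellin, by -0.38. The part of these markers in the class II differences was not tested.

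The next comparison asked whether flagellin changed class II transcripts within a strain. None of the 17 probe sets was called in any of the 4 strains. In B6, where 17.2% of all probe sets were called, the members lay between -0.18 and 0.29 and their lowest limma adjusted p was 0.367, with 0 of 17 at an unadjusted p under 0.05. In BC-R3, C3Bir and CB-R1 no probe set of the array was called (0% each by limma, with 4024, 3404 and 1436 at an unadjusted p under 0.05), and 2, 0 and 1 of the members had an unadjusted p under 0.05. Leaving out array 1 of unstimulated C3Bir, BC-R3 and B6, 1448 of all probe sets were called in BC-R3, 1878 in C3Bir and 0 in CB-R1, and 0 members in each. The median member difference was 0.07 in B6, -0.03 in BC-R3, 0.06 in C3Bir and 0.12 in CB-R1, beside -0.03, -0.0053, -0.0047 and -0.0023 over all probe sets.

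In B6, H2-Aa (1435290_x_at) had 11.97, 11.43 and 11.49 with flagellin, against 11.87, 11.25 and 11.13 without. Array 1 was the highest in both conditions and the groups overlapped. The change was 0.21 with a 95% interval of -0.42 to 0.84. Cd74 in B6 had 12.84, 12.13 and 12.25 with flagellin, against 12.64, 12.05 and 12.01 without, a change of 0.17 with an interval of -0.32 to 0.67. Ciita in B6 had 6.70, 6.59 and 6.75 with flagellin, against 6.78, 6.74 and 6.89 without, a change of -0.12 with an interval of -0.35 to 0.10. On the same arrays 3 regulators of Ciita were lower with flagellin: Socs1 by -1.85, Irf1 by -1.45 and the kinase Jak2 by -1.35. The promoter factor Rfx5 was lower by -0.57 and Rfxap higher by 0.36, and of the peptide loading list Ifi30 was higher by 0.37 and Ctsl by 0.24. Of the markers 2 of 7 of B cells, 1 of 11 of dendritic cells and 2 of 6 of T and NK cells were lower, and none of 8 of macrophages was called. In this B6 comparison 17.2% of all probe sets were called, and unstimulated arrays 2 and 3 are among the 4 high arrays. Leaving those out keeps only unstimulated array 1, too few to show whether these changes hold.

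The intervals show what size of flagellin change is left possible by the main fit, which does not pair arrays by number. For Cd74 they were -0.38 to 0.61 in CB-R1, -0.50 to 0.49 in C3Bir and -0.54 to 0.45 in BC-R3. For H2-Eb1 they were -0.38 to 0.64 in CB-R1, -0.44 to 0.59 in C3Bir and -0.61 to 0.41 in BC-R3. For Ciita (1421211_a_at) they were narrower, -0.25 to 0.20 in CB-R1, -0.31 to 0.14 in C3Bir and -0.21 to 0.24 in BC-R3. A block by array number within C3Bir, added after the values were seen, gave smaller standard errors. They were 0.07 for Cd74 and 0.07 for H2-Eb1, against 0.24 and 0.25 in the main fit. The largest member change was that of H2-Ab1 probe set 1451721_a_at in CB-R1, which had 9.40, 9.24 and 9.83 with flagellin, against 8.53, 8.33 and 9.37 without. These arrays overlapped, and the change of 0.75 ± 0.31 was not called. Between arrays of the same number it was 0.87, 0.92 and 0.46, and the other 2 probe sets of H2-Ab1 were also higher for all 3 numbers, by 0.21 to 0.52. With a block by array number in a fit of the 6 CB-R1 arrays, 1451721_a_at was called (0.75 ± 0.09, limma adjusted p = 0.0388), as the only member and 1 of 33 among all probe sets. In that fit 1450648_s_at and 1425477_x_at of H2-Ab1 gave 0.32 ± 0.07 and 0.36 ± 0.08 and were not called (limma adjusted p = 0.147 and 0.157). The labels do not say that equal numbers share a donor, and this fit was chosen after the values were seen. The difference in flagellin change between the backgrounds was not called for any member (0% of all probe sets called by limma, with 2596 of all and 0 members at an unadjusted p under 0.05).

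**Figure D3:**
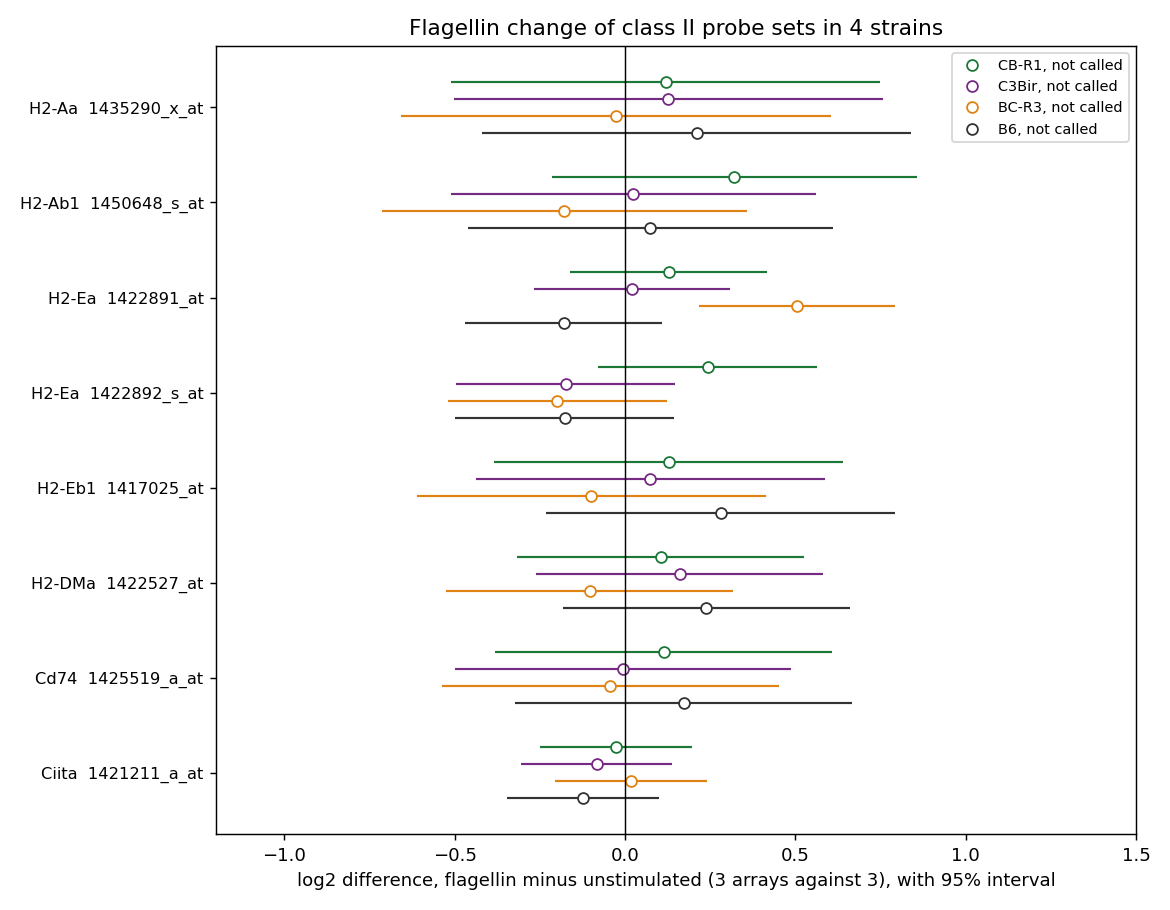
Flagellin change in log2 signal (flagellin minus unstimulated, 3 arrays against 3) with its 95% interval for 8 class II probe sets, coloured by strain from CB-R1 at the top to B6 at the bottom of each group. All points are open because none passed an adjusted p of 0.05, and the 1 interval away from 0 is that of 1422891_at of H2-Ea in BC-R3.

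The last comparisons asked whether the exchanged chromosome 3 segment changed class II transcripts within a background. BC-R3 was set against B6, which share the B6 background and its MHC. With flagellin 0 of 17 probe sets were called, against 0.0222% of all, and 0 members had an unadjusted p under 0.05 (limma). Without flagellin 1 of 17 was called, which was lower, against 26.5% of all (11.2% lower). Arrays did not overlap for 1 of 17, against 37.1% of all. The members' median difference was -0.11 with flagellin and 0.04 without.

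The called probe set was 1422891_at of H2-Ea, which had 8.97, 8.97 and 8.74 on BC-R3 unstimulated arrays, against 9.40, 9.43 and 9.41 on those of B6. The groups did not overlap, and it was 1.43-fold lower in BC-R3 (-0.52 ± 0.14, limma adjusted p = 0.0103). Without the 4 high arrays, which leaves only array 1 of unstimulated B6, the difference was -0.51, with too few arrays to test it. Without BC-R3 unstimulated array 3 it was -0.44 and did not pass (limma adjusted p = 0.0647). The other H2-Ea probe set above the lower quartile, 1422892_s_at, differed by 0.06 with an interval of -0.26 to 0.38. Whether 1422891_at reads H2-Ea transcript in these strains was not tested. H2-Ab1 (1450648_s_at) had 11.47, 10.90 and 11.04 in BC-R3 unstimulated, against 11.42, 10.98 and 10.90 in B6, and differed by 0.04 with an interval of -0.50 to 0.57. Ciita (1421211_a_at) had 6.77, 6.56 and 6.29 in BC-R3 unstimulated, against 6.78, 6.74 and 6.89 in B6, and the difference of -0.26 did not pass (adjusted p = 0.0747). Leaving out array 1 of unstimulated C3Bir, BC-R3 and B6 it was -0.39 and passed (limma adjusted p = 0.0180). That setting leaves only arrays 2 and 3 of unstimulated B6, both among the 4 high arrays. In it 16022 of all probe sets were called, against 11939 with all arrays.

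The flagellin change was also compared between BC-R3 and B6. It differed for 1 of 17 probe sets, which was higher, against 8.05% of all (3.31% higher). This was again 1422891_at of H2-Ea, which had 9.41, 9.27 and 9.51 in BC-R3 with flagellin, against 8.97, 8.97 and 8.74 without. Its BC-R3 arrays did not overlap, as held for 1 of 17 members and 15.7% of all probe sets. In B6 it had 8.73, 9.56 and 9.41 with flagellin, against 9.40, 9.43 and 9.41 without. The change was 0.50 in BC-R3 and -0.18 in B6, neither called by itself, and the difference between them was 0.69 ± 0.20 (limma adjusted p = 0.0398). Without the 4 high arrays it was 0.67, with only array 1 of unstimulated B6 left.

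In unstimulated BC-R3 against B6, where B6 holds 2 of the 4 high arrays, genes of the surrounding lists were called too, as were 26.5% of all probe sets. Of 9 regulators of Ciita 4 were lower and 1 higher, among them Socs1 by -1.89, Jak2 by -1.74, Irf1 by -1.64 and Irf8, a factor of macrophage development, by 0.66. Of 9 peptide loading genes 4 were higher and 1 lower, with Lgmn, an endosomal protease, higher by 0.68, Ctsl by 0.40, Ifi30 by 0.33 and H2-DMb2, a beta chain of H2-DM, lower by -0.26. Of 7 promoter factors Rfx5 was lower by -0.65 and Rfxank higher by 0.35. Of the markers 3 of 8 of macrophages were higher, 1 of 11 of dendritic cells and 1 of 6 of T and NK cells were lower, and 0 of 7 of B cells were called. The part of these markers was not tested. Leaving out the 4 high arrays keeps only array 1 of unstimulated B6, too few to show whether these calls hold. With flagellin none of these list genes was called.

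CB-R1 was set against C3Bir, which share the C3Bir background. None of the 17 probe sets was called with flagellin, against 0.0555% of all, or without, against 0.586%, and 2 and 0 members had an unadjusted p under 0.05 (limma). H2-Eb1 had 10.55, 10.24 and 10.48 in CB-R1 with flagellin, against 10.53, 9.82 and 9.51 in C3Bir. Array 1 of C3Bir stood level with CB-R1 and the other 2 lay below it. The difference was 0.47 with an interval of -0.04 to 0.98, and without flagellin it was 0.41 with an interval of -0.10 to 0.93. Leaving out the same 3 unstimulated arrays the unstimulated difference was 0.72 and passed (limma adjusted p = 0.0270). That setting drops C3Bir unstimulated array 1, at 10.49, and keeps arrays 2 and 3, at 9.62 and 9.54. Dropping the highest C3Bir array by itself enlarges the difference. Both kept arrays are among the 4 high arrays. In that setting 4559 of all probe sets were called, against 264 with all arrays. With all arrays H2-Aa (1435290_x_at) differed by 0.32 in both conditions, with intervals of -0.31 to 0.95.

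The class II genes also varied together among arrays of the same group. Over the 9 class II probe sets above the upper quartile of the arrays, C3Bir array 1 was the highest of its group for 9 of 9 in both conditions, with a median deviation from the group mean of 0.67 with flagellin and 0.61 without. B6 array 1 was the highest for 8 of 9 in both conditions, with 0.40 and 0.42. The exception in B6 was 1422891_at of H2-Ea, for which array 1 was the lowest. In CB-R1 array 3 was the highest for 6 of 9 with flagellin and 9 of 9 without, and in BC-R3 it was array 3 with flagellin and array 1 without, for 9 of 9 each.

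With each probe set centred on the mean of its background, H2-Aa (1435290_x_at) followed Cd74 over the 24 arrays with a Pearson r of 0.97, H2-Eb1 with 0.95, H2-Ab1 (1450648_s_at) with 0.91 and H2-DMa (1422527_at) with 0.88. Its r was 0.21 with Ciita (1421211_a_at), 0.57 with H2-Ea 1422892_s_at and -0.00045 with H2-Ea 1422891_at. These are descriptions over arrays that share strain, condition and culture. Outside the 7 members, the genes most like H2-Aa were Ighm, the IgM heavy chain, at 0.95, C1qa, a complement chain made by macrophages, at 0.94, and Clec10a, a C-type lectin, at 0.94. For Cd74 they were Ighm at 0.95, Cbr2 at 0.93 and C1qa at 0.92. Cbr2 is a carbonyl reductase. For Ciita they were Cd47 at 0.82, Lacc1 at 0.81 and C1qtnf2 at 0.79. For H2-Ea (1422891_at), over the 12 arrays of the C3Bir background, they were Ifngr2, a chain of the interferon gamma receptor, at 0.90, Sass6 at 0.90 and Dpysl2 at 0.88.

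Ighm had 9.15, 7.68 and 7.50 on C3Bir flagellin arrays 1 to 3, against 9.06, 7.56 and 7.70 on the unstimulated ones. Array 1 was again the highest in both conditions. The mean of the 7 B cell markers was 6.44, 6.28 and 6.37 on the C3Bir flagellin arrays, against 6.47, 6.37 and 6.35 on the unstimulated ones, also highest on array 1. In B6 with flagellin, where class II was highest on array 1, that array had the lowest B cell mean, at 6.29, 6.31 and 6.36. In BC-R3 with flagellin array 3, the highest for class II, had the lowest, at 6.45, 6.52 and 6.40. Unstimulated arrays had 6.48, 6.38 and 6.43 in B6 and 6.52, 6.40 and 6.39 in BC-R3, highest on array 1, as class II was. CB-R1 had 6.44, 6.44 and 6.50 with flagellin and 6.45, 6.40 and 6.52 without, highest on array 3, like most class II probe sets. The mean of the 8 macrophage markers was 12.53, 12.05 and 12.17 on C3Bir flagellin arrays, against 12.54 on unstimulated array 1, 11.99 on array 2 and nearly the same on array 3. In B6 it was 12.53 on flagellin array 1, 12.46 on array 3 and lower on array 2, against 12.38, 12.16 and 12.14 on the unstimulated ones. The macrophage mean was highest on array 1 in these 4 groups, as class II was. In CB-R1 it was 12.42, 12.38 and 12.53 with flagellin and 12.38, 12.33 and 12.58 without, highest on array 3. In BC-R3 with flagellin it was 12.34, 12.35 and 12.34. In BC-R3 unstimulated it was 12.40, 12.54 and 12.50, lowest on array 1, where class II was highest. The part of either cell type in this shared variation was not tested.

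**Figure D4:**
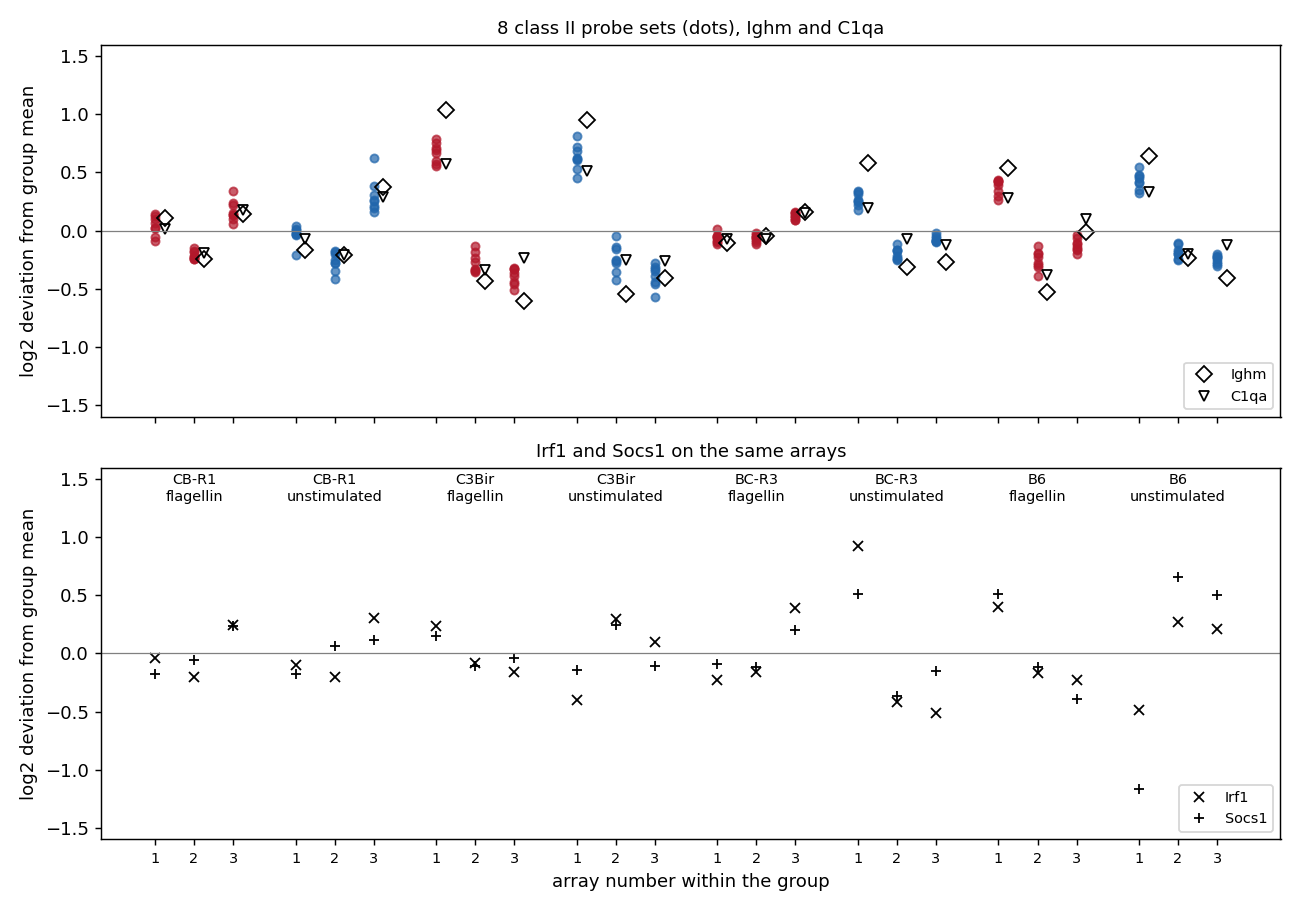
Deviation of each array from its group mean in log2 units, by array number within the 8 groups; the upper panel shows 8 class II probe sets as dots (red flagellin, blue unstimulated) with Ighm as diamonds and C1qa as triangles, and the lower panel Irf1 and Socs1. In the upper panel array 1 of C3Bir stands above 0 in both conditions and arrays 2 and 3 below it, while in the lower panel Irf1 and Socs1 of B6 unstimulated are lowest on array 1.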

How the data were processed

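RNA of cultured macrophages was hybridised to 24 Affymetrix arrays, 3 in each of 8 groups of strain and condition named by the labels. The authors deposited 1 table of log2 values for 45037 probe sets, of which 45033 had values. Their computation and normalization are not given in the sources used here, and they carry no detection call and no read depth. They were used as deposited, without a filter. Symbols came from the platform annotation: 34944 probe sets had 1 symbol, 931 several and 9158 none.

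With limma 3.58.1 in R 4.3.3, every probe set was modelled by its 8 group means over the 24 arrays (16 residual and 4.02 prior degrees of freedom). Tests in 12 contrasts were two-sided, with p-values adjusted by Benjamini-Hochberg within a contrast over all 45033 probe sets, and an adjusted p under 0.05 was called. The fitting code was tested on simulated data. Differences between probe sets of a gene were compared by exact permutation over arrays.

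The 7 genes and the lists were chosen with earlier results of these data known. A list gene stands for its probe set with the highest mean; called ones are named, at most 4 per list by size, and Irf1 and H2-DMb1 whatever their values. Likeness is the Pearson correlation, after centring on the background mean, with the brightest probe set of H2-Aa, Cd74 and Ciita over 24 arrays and of H2-Ea over the 12 of the C3Bir background, and the 3 highest genes are named. Alternatives were other normalizations, a filter, 1 probe set per gene, other eBayes options, blocks by array number, the compared arrays alone and leaving out each array. The exclusions of 4 arrays with high cytokine signals and of unstimulated array 1 of 3 strains, the test of probe set pairs and a block by number within CB-R1 and C3Bir were added after the data were seen. Promoter sequences are RefSeq's, build GRCm38.p6. Of the 7 genes, H2-Aa, H2-Eb1 and H2-DMa were searched, and H2-Aa and H2-Eb1 are printed. H2-Ab1, H2-Ea and Ciita had no promoter sequence in the reference used. Cd74, on chromosome 18, was left out of this display, so its promoter is not described.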

Additional observations from a re-analysis of the deposited data

Results flagged for a closer look

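The change with flagellin of H2-Ea probe set 1422891_at differed between BC-R3 and B6, by a test of the difference itself. In BC-R3 it had 9.41, 9.27 and 9.51 with flagellin, against 8.97, 8.97 and 8.74 without. In B6 it had 8.73, 9.56 and 9.41 with flagellin, against 9.40, 9.43 and 9.41 without. The change was 0.50 in BC-R3, where the arrays did not overlap, and -0.18 in B6, where 1 flagellin array stood far below the other arrays. The difference between the changes was 0.69 ± 0.20 (limma adjusted p = 0.0398), and 8.05% of all probe sets were called in this contrast. It did not pass in 11 of 22 other settings, among them that without B6 flagellin array 1 (0.43, limma adjusted p = 0.0528). Without the 4 high arrays it was 0.67, with only array 1 of unstimulated B6 left. The other H2-Ea probe set above the lower quartile, 1422892_s_at, gave -0.02 with a 95% interval of -0.48 to 0.43. Whether 1422891_at reads H2-Ea transcript in BC-R3 and B6 was not tested.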

How the results depend on the processing

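The 18 member results called in the report were each run under 16 to 23 other settings, 396 runs in all. The settings were a filter on low values, median centring, quantile normalization, 1 probe set per gene and eBayes with trend and robust options. They also included a fixed and a random replicate block, the compared arrays alone, 2 exclusions of arrays, leaving out each array in turn and, between backgrounds, the exact permutation test. No run changed direction, 368 runs kept the call and 28 lost it. Of the 16 results between backgrounds 14 kept their call in every setting, and the exceptions were 1422891_at of H2-Ea with flagellin, lost in 13 of 23 (adjusted p 0.00562 to 0.114), and without, lost in 1 of 23. With 1 probe set per gene 3 of the 7 genes were called between backgrounds in each condition. In that setting H2-Aa was read only by its brightest probe set, 1435290_x_at, which did not pass with all probe sets either. Leaving out single arrays gave 7 to 8 called member probe sets between backgrounds with flagellin, where 4244 to 6177 of all were called. Without flagellin it gave 8 to 9, beside 4981 to 7987 of all. For unstimulated BC-R3 against B6 it gave 0 to 2, beside 5346 to 14059 of all. For CB-R1 against C3Bir with flagellin it gave 0 to 1 (1 without C3Bir flagellin array 1), beside 11 to 171 of all. For the difference of the flagellin change between BC-R3 and B6 it gave 0 to 1, beside 184 to 8456 of all. That count was 0 without B6 flagellin array 1, unstimulated array 2 or 3 of either strain, or any BC-R3 flagellin array. For unstimulated BC-R3 against B6 the count was 0 with the compared arrays alone and 2 without the 3 unstimulated arrays 1. For unstimulated CB-R1 against C3Bir the last of these gave 1. The difference of the flagellin change between BC-R3 and B6 had 0 called after quantile normalization and with the compared arrays alone. Without the 4 high arrays only array 1 of unstimulated B6 is left, so a lost call there cannot be told from the loss of arrays. The causes were not tested. For 3 arrays against 3 the exact permutation test can give no p below 0.1, so it gave no calls there.

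Equal array numbers were checked for pairing. Over 12 pairs of same-numbered arrays of a strain, deviations from the group mean correlated between -0.44 and 0.50, above 0.1 in 8, and 8 matched their own number best, so the numbers were not taken to pair the samples over the whole design. All 6 pairs of CB-R1 and C3Bir lay above 0.1 and matched their own number, and a replicate block within the strain, added after the values were seen, called 1 member in the flagellin change in CB-R1 (1451721_a_at of H2-Ab1, adjusted p = 0.0388) and 0 in C3Bir. With the replicate block over all strains 8 probe sets were called between backgrounds with flagellin (1 higher and 7 lower) and 9 without (2 higher and 7 lower). It called 1 in unstimulated BC-R3 against B6, 1 in the difference of the flagellin change between BC-R3 and B6 and 0 in the other contrasts. A random replicate block gave 8 and 8 between backgrounds. With no detection call, signals below the lower quartile limit what 1443783_x_at, 1426202_at and 1447075_at can show.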
